A study of Mus musculus with 10 samples.

Results

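The genes described here are those whose mouse symbol begins with Nduf, which holds the nuclear encoded subunits of respiratory complex I and the assembly factors that carry the Ndufaf stem. Of 21225 probe sets on the array, 43 genes with such a symbol are described, and all 43 were tested with no filter on brightness. They comprised 33 subunits, 7 Ndufaf assembly factors and 3 further symbols that are not counted among the subunits (Ndufa4, Ndufa4l2 and Ndufa11b). The listed subunits Ndufab1, Ndufb1 and Ndufb4, the assembly factor Ndufaf8 and the 7 subunits encoded by mitochondrial DNA were not analysed here.

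Forebrain RNA had been taken from 10 wild-type mouse embryos at embryonic day 15.5, the progeny of C57Bl/6J females mated with Ts1Cje males. In the powdered chow group, 5 embryos came from dams fed the purified powder Bioserv F3197. In the pelleted chow group, 5 embryos came from dams fed the standard pellets Teklad 2918. The dams had been on their diet since breeding, each embryo of a group came from a different litter, and each was hybridized to 1 array, so the number of arrays limits the precision. By the cross, litters of both groups could hold trisomic embryos beside the wild-type ones. The animal numbers on the labels are 87 to 115 for powdered chow and 05 to 15 for pelleted chow, and fetal sex, slide and scan date are not among the labels, so no such term could be fitted.

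Complex I, the NADH:ubiquinone oxidoreductase of the inner mitochondrial membrane, takes electrons from NADH, passes them along a chain of iron-sulfur clusters to ubiquinone and uses the energy to pump protons. It is L-shaped: a peripheral arm in the matrix carries the flavin, the clusters and the ubiquinone site, and a membrane arm carries the proton pumps. The catalytic core is shared with bacteria, and many accessory subunits surround it. Assembly factors help to build the complex and are absent from the finished enzyme. Complex I deficiency in humans is a known cause of Leigh syndrome, a degenerative disease of the infant brain.

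All levels are log2 expression values, and differences are powdered minus pelleted chow on that scale, so that a difference of 1 is a doubling. A gene counts as higher or lower where limma gave it an adjusted p under 0.05 (Benjamini-Hochberg, over the 21225 probe sets together). At this threshold 21.2% of all probe sets were higher and 21.8% lower in powdered chow-exposed brain, and the median difference over all of them was -0.024. Some markers of forebrain and of other regions and cells also differed between the diets. Among 8 erythroid markers 3 were higher and 0 lower, and their mean level on an array ran from 7.33 to 7.58 in powdered chow-exposed embryos and from 6.86 to 7.42 in pelleted chow-exposed embryos. Among 6 endothelial markers 3 were higher and 0 lower, and their mean level ran from 9.09 to 9.20 in powdered chow-exposed embryos and from 8.96 to 9.03 in pelleted chow-exposed embryos. Of the 8 midbrain and hindbrain markers 3 were lower and 0 higher, with means from 6.34 to 6.55 in powdered chow-exposed embryos and from 6.50 to 6.75 in pelleted chow-exposed embryos, while 7 of the 14 forebrain markers were higher and 0 lower, with means from 10.22 to 10.34 in powdered chow-exposed embryos and from 9.94 to 10.16 in pelleted chow-exposed embryos. Of 7 microglia markers 2 were higher and 2 lower (28.6% each way). Of 5 choroid plexus markers 1 was higher and 1 lower (20% each way, near the shares of all probe sets). Of 4 meningeal fibroblast markers 2 were higher and 0 lower. For every choroid plexus and meningeal fibroblast marker the diets overlapped. Some of the markers were dim. Among the 8 midbrain and hindbrain markers 0 were brighter than the median probe set and 3 lay below the lower quartile. Among the 8 erythroid markers 2 were above that median and 4 below the lower quartile. The part of these marker differences in the complex I values was not tested. In whole forebrain tissue, fewer cells of a type and less RNA per cell cannot be told apart.

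The subunit genes moved in both directions, with the largest rises among accessory subunits and falls of 4 of 6 catalytic core subunits in powdered chow-exposed brain. Of 33 subunits 12 were higher (36.4%) and 10 were lower (30.3%), against the 21.2% and 21.8% of all probe sets given above, and 11 were not called. The median difference over the 33 subunits was 0.0088, near that of all probe sets. The median size of the difference, regardless of sign, was 0.44 for the subunits and 0.17 for all probe sets. Past the stricter limits of the methods (a fold change above 1.5 with a raw p under 0.001 and an adjusted p under 0.01) there were 7 higher subunits (21.2%) and 5 lower ones (15.2%), beside 4.84% and 3.43% of all probe sets. The values of the 2 diets did not overlap for 19 of 33 subunits (57.6%), compared with 32.6% of all probe sets. Of the 33 subunits 32 were brighter than the median probe set, and shares over probe sets of like brightness were not computed. The nuclear encoded subunits of complexes II to V, taken up below, had a median size of 0.44. For 18 of those 31 (58.1%) the diets did not overlap. The 7 Ndufaf assembly factors, which differed in direction too, are described after the subunits.

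**Figure D1:**
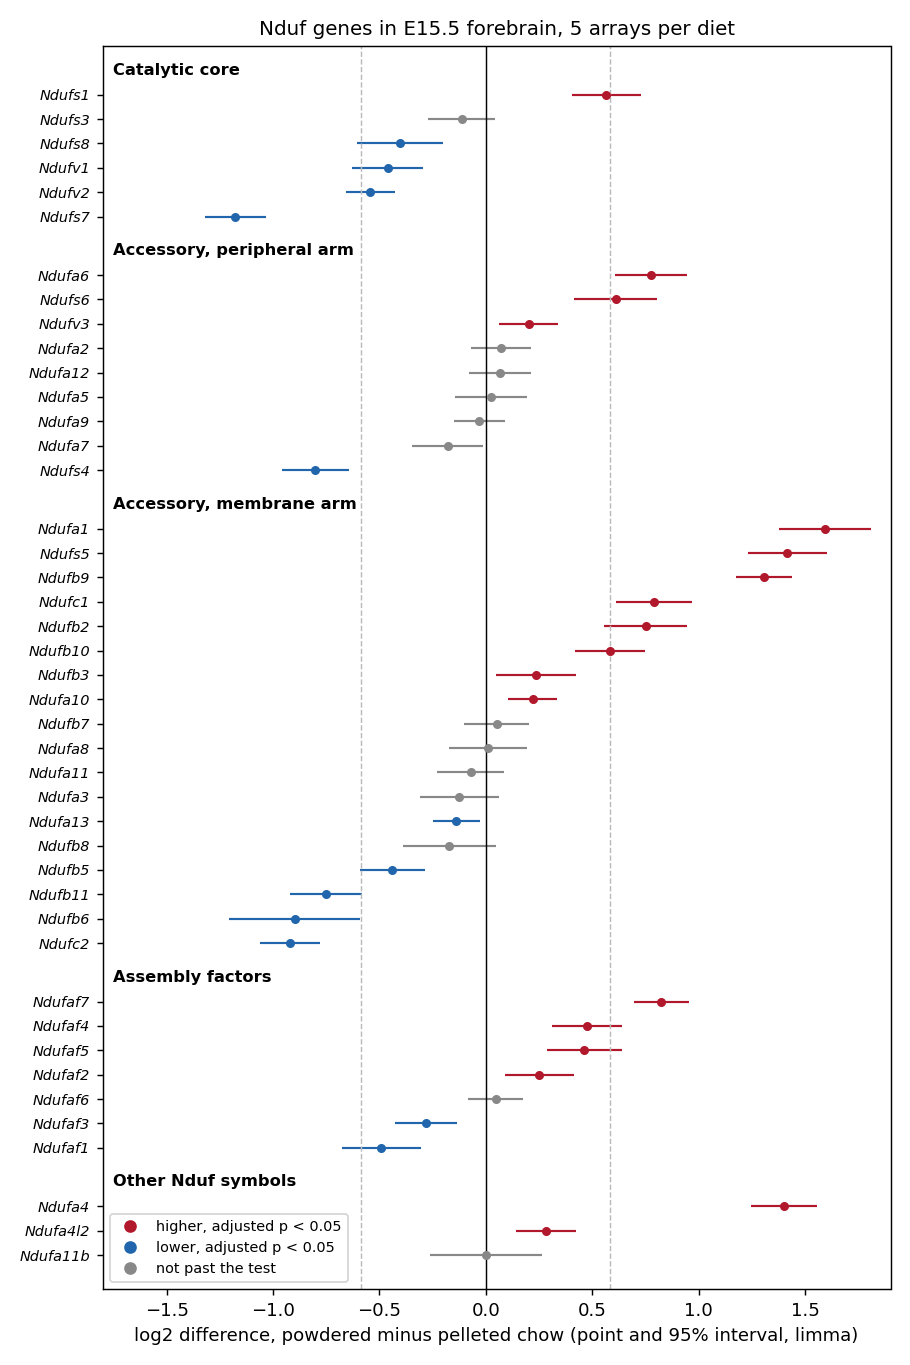
Log2 difference (powdered minus pelleted chow, horizontal axis) of each of the 43 Nduf genes, grouped by role, with points for the fitted difference bars for the 95% interval and dashed lines at a fold change of 1.5. The differences run from -1.18 for Ndufs7 to 1.59 for Ndufa1. Each group of subunits and the assembly factors hold genes called higher and genes called lower. Among the other Nduf symbols none was called lower, and Ndufa11b lies at -0.00089.

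The catalytic core, whose nuclear encoded subunits lie in the peripheral arm and of which 6 are described, was the group with the lowest median difference, -0.43. In it 4 genes were lower, 1 was higher and 1 was not called, while 21.8% of all probe sets were lower and 21.2% higher. Ndufs7, which lies at the ubiquinone site and holds the last cluster before it, had values of 10.72, 10.70, 10.60, 10.45 and 10.53 in powdered chow-exposed embryos, against 11.67, 11.76, 11.73, 11.86 and 11.86 in pelleted chow-exposed embryos. Every powdered array lay below every pelleted array, and the gene fell by 1.18 (SE 0.066, adjusted p = 4.97e-08), a 2.26-fold decrease that was the largest fall of any subunit. Ndufv2, an iron-sulfur subunit at the entry of electrons, had values of 10.83, 10.85, 10.70, 10.79 and 10.67 in powdered chow-exposed embryos, against 11.24, 11.32, 11.32, 11.35 and 11.33 in pelleted chow-exposed embryos, and fell by 0.54 (SE 0.054, adjusted p = 3.86e-06). Its partner Ndufv1, which binds NADH and the flavin, had values of 9.85, 9.86, 9.81, 9.99 and 9.87 in powdered chow-exposed embryos, against 10.34, 10.47, 10.38, 10.05 and 10.45 in pelleted chow-exposed embryos, and fell by 0.46 (SE 0.077, adjusted p = 0.000299). For both of these genes the groups were separate, with the highest powdered value below the lowest pelleted value.

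Ndufs8, another iron-sulfur subunit of the peripheral arm, had values of 10.07, 10.10, 9.93, 9.90 and 9.94 in powdered chow-exposed embryos, against 10.04, 10.45, 10.40, 10.63 and 10.43 in pelleted chow-exposed embryos. Here the ranges overlapped, with 2 powdered arrays above the pelleted array 05, and the fall was 0.40 (SE 0.094, adjusted p = 0.00349). Ndufs1, the large iron-sulfur subunit that passes electrons from the flavin toward ubiquinone, was the exception to the direction of the core. It had values of 9.83, 9.76, 9.79, 9.99 and 9.89 in powdered chow-exposed embryos, against 9.24, 9.46, 9.33, 9.06 and 9.34 in pelleted chow-exposed embryos, with no overlap, and rose by 0.56 (SE 0.075, adjusted p = 4.79e-05). Ndufs3, also a core subunit of the peripheral arm, was not called. It had values of 10.86, 11.05, 11.13, 10.88 and 10.98 in powdered chow-exposed embryos, against 11.30, 11.02, 11.01, 11.05 and 11.08 in pelleted chow-exposed embryos, and the difference was -0.11 (SE 0.073, adjusted p = 0.231). For Ndufs3 the diets overlapped.

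Among the 9 accessory subunits of the peripheral arm, 3 were higher, 1 was lower and 5 were not called, with a median difference of 0.065. These shares are 33.3% higher and 11.1% lower, beside 21.2% and 21.8% of all probe sets. Ndufa6, a LYR-motif protein that anchors an acyl carrier protein to the complex, had values of 9.53, 9.44, 9.35, 9.43 and 9.21 in powdered chow-exposed embryos, against 8.71, 8.75, 8.62, 8.40 and 8.62 in pelleted chow-exposed embryos. The groups did not overlap and the gene rose by 0.77 (SE 0.078, adjusted p = 4.52e-06). Ndufs6, a zinc-binding subunit of the peripheral arm, rose by 0.61 (SE 0.090, adjusted p = 0.00011), and Ndufv3, a small subunit beside Ndufv1 and Ndufv2, by 0.20 (SE 0.064, adjusted p = 0.0213). Ndufs4, whose loss in mice gives a model of Leigh syndrome, moved the other way. It had values of 10.27, 10.17, 9.99, 10.35 and 10.21 in powdered chow-exposed embryos, against 10.98, 11.07, 11.02, 10.85 and 11.06 in pelleted chow-exposed embryos, again without overlap, and fell by 0.80 (SE 0.072, adjusted p = 1.85e-06), a 1.74-fold decrease. The 5 genes that were not called, Ndufa2, Ndufa5, Ndufa7, Ndufa9 and Ndufa12, had differences between -0.18 for Ndufa7 (95% interval -0.35 to -0.012) and 0.071 for Ndufa2 (95% interval -0.070 to 0.21).

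The 18 accessory subunits of the membrane arm held the largest rises. In this group 8 genes were higher, 5 were lower and 5 were not called, and 12 of 18 showed no overlap between the diets, beside 21.2% higher, 21.8% lower and 32.6% without overlap over all probe sets. Ndufa1, a small subunit encoded on the X chromosome that hamster cells need to build the complex, had values of 9.44, 9.31, 9.27, 9.41 and 9.23 in powdered chow-exposed embryos, against 7.47, 7.92, 7.98, 7.50 and 7.82 in pelleted chow-exposed embryos. The lowest powdered array stood more than 1 log2 unit above the highest pelleted array, and the rise of 1.59 (SE 0.099, adjusted p = 1.14e-07) corresponds to 3.02-fold. Ndufs5, which sits on the intermembrane-space side, had values of 9.95, 9.91, 9.95, 10.28 and 10.08 in powdered chow-exposed embryos, against 8.38, 8.67, 8.62, 8.80 and 8.61 in pelleted chow-exposed embryos, and rose by 1.42 (SE 0.086, adjusted p = 9.88e-08). Ndufb9, a LYR-motif subunit toward the far end of the arm, had values of 11.97, 11.96, 11.88, 11.88 and 11.78 in powdered chow-exposed embryos, against 10.48, 10.60, 10.72, 10.54 and 10.62 in pelleted chow-exposed embryos, and rose by 1.31 (SE 0.060, adjusted p = 9.61e-09). These 3 genes passed a fold change of 2, and their powdered ranges lay wholly above their pelleted ranges.

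Ndufc1, a small single-span subunit, had values of 10.70, 10.74, 10.43, 10.41 and 10.44 in powdered chow-exposed embryos, against 9.60, 9.89, 9.79, 9.81 and 9.67 in pelleted chow-exposed embryos, and rose by 0.79 (SE 0.083, adjusted p = 6.22e-06). Ndufb2, a subunit of the distal part of the arm, had values of 8.47, 8.46, 8.50, 8.79 and 8.28 in powdered chow-exposed embryos, against 7.59, 7.70, 7.83, 7.92 and 7.71 in pelleted chow-exposed embryos, and rose by 0.75 (SE 0.090, adjusted p = 2.00e-05). In both genes all powdered arrays were above all pelleted arrays. The other 3 higher members, also accessory subunits of this arm, were Ndufb10 with a difference of 0.58 (adjusted p = 4.42e-05), Ndufb3 with 0.23 (adjusted p = 0.0433) and Ndufa10 with 0.22 (adjusted p = 0.0048). The Ndufb3 ranges overlapped.

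Among the falls of the membrane arm, Ndufc2, the partner of Ndufc1 in name and place, had values of 11.06, 10.98, 11.01, 11.22 and 11.04 in powdered chow-exposed embryos, against 12.07, 12.03, 12.03, 11.82 and 11.95 in pelleted chow-exposed embryos. The powdered arrays were all lower, and the gene fell by 0.92 (SE 0.065, adjusted p = 2.86e-07). Ndufb6, a subunit of the distal part of the arm, had values of 10.11, 10.07, 9.94, 10.22 and 10.14 in powdered chow-exposed embryos, against 11.30, 11.21, 10.96, 10.37 and 11.15 in pelleted chow-exposed embryos, and fell by 0.90 (SE 0.14, adjusted p = 0.000199). Every powdered array lay below the lowest pelleted array, 11, which stood well under the other pelleted arrays. Ndufb11, an X-linked subunit, had values of 8.49, 8.19, 8.26, 8.50 and 8.19 in powdered chow-exposed embryos, against 9.13, 8.98, 9.02, 9.22 and 9.03 in pelleted chow-exposed embryos, with no overlap, and fell by 0.75 (SE 0.078, adjusted p = 6.20e-06). Ndufb5, another subunit of the distal part, fell by 0.44 (SE 0.071, adjusted p = 0.000236). Ndufa13, also known as Grim19, fell by 0.14 (SE 0.051, adjusted p = 0.0406), the smallest of the calls. The 5 genes not called (Ndufa3, Ndufa8, Ndufa11, Ndufb7 and Ndufb8) lay between -0.17 for Ndufb8 and 0.050 for Ndufb7.

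**Figure D2:**
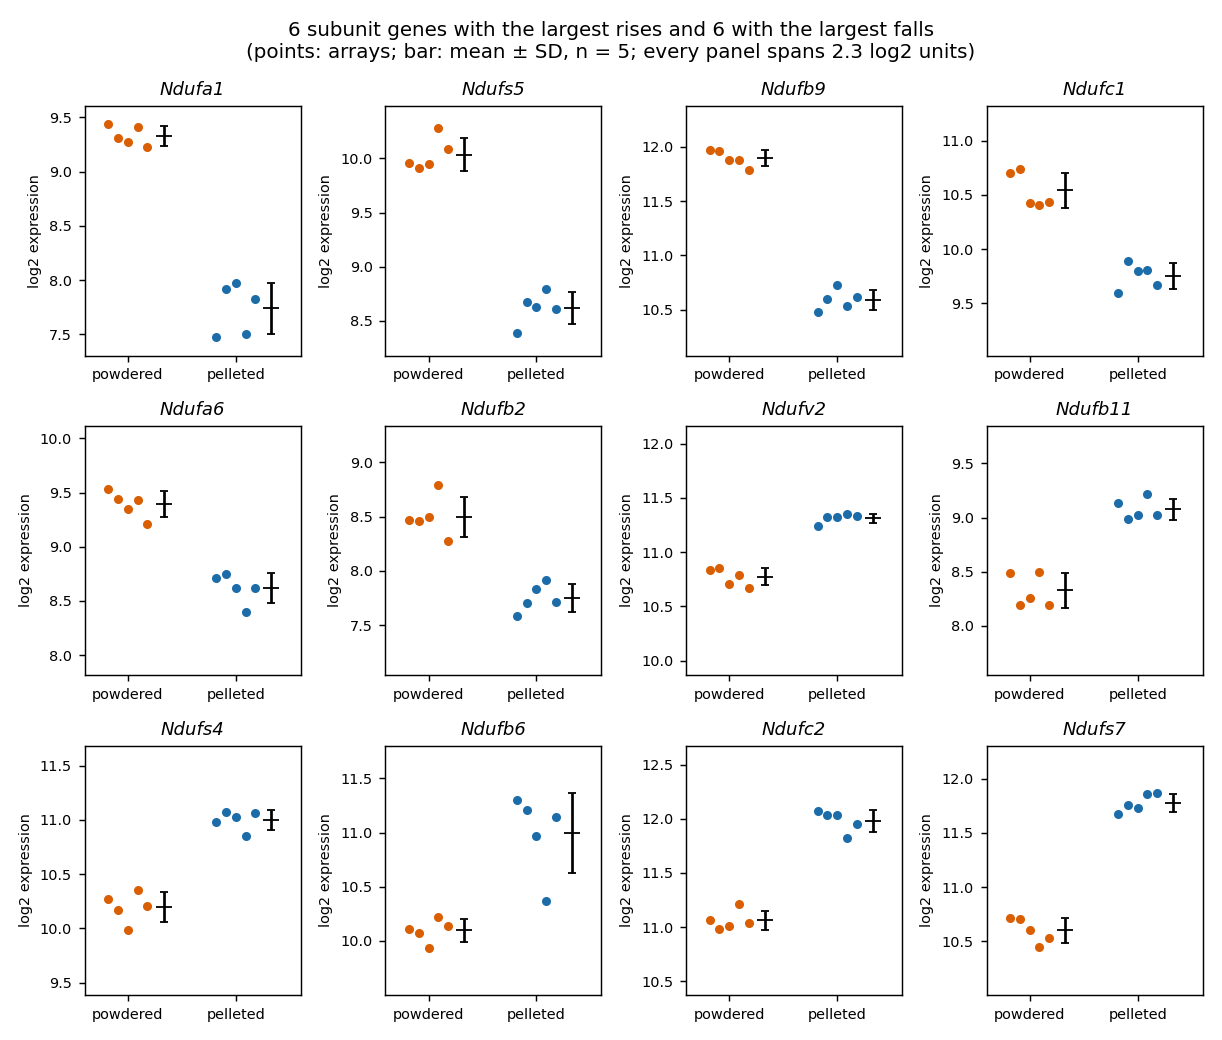
Log2 expression (vertical axis) on each array for the 6 subunits with the largest rises and the 6 with the largest falls, powdered chow to the left of pelleted chow in each panel, with a point per embryo and a bar for the mean ± SD (n = 5). Ndufa1 lies between 9.23 and 9.44 in powdered chow-exposed embryos, above 7.47 to 7.98 in pelleted chow-exposed embryos, while Ndufs7 lies between 10.45 and 10.72 in the powdered group, below 11.67 to 11.86 in the pelleted group.

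The promoters of the Nduf genes, subunits and assembly factors together, were set beside the differences. Many nuclear genes of the respiratory chain carry sites for NRF-1 (nuclear respiratory factor 1), ERR (estrogen-related receptors) and YY1. RefSeq windows on GRCm38.p6, from 250 bases before to 50 after the start of a gene, were at hand for 37 of the 43 Nduf genes. The NRF-1 core GCGCANGCG, searched on both strands, was present in 9 of 37 (24.3%), against 10.4% of the 15890 measured genes with a window and 6.25% of all 32851 windows. It stood in 6 of the 15 higher genes with a window, in 0 of the 12 lower genes and in 3 of the 10 genes not called. The 6 include the assembly factors Ndufaf4 and Ndufaf5. Matches were not split by call over all measured genes, so this split has no background beside it. The YY1 element AANATGGCG was present in 7 of 37 (18.9%), against 3.90% of measured genes and 2.38% of all windows, and stood in 2 of 15 higher, 3 of 12 lower and 2 of 10 not called genes. The ERR element TCAAGGTCA was found in 0 of 37 and in 0.352% of measured genes and 0.423% of all windows. A motif match is a description of these letters and not of binding, and a missing match says only that the letters are not in the window.

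The windows of 4 genes with a match are shown, 2 higher and 2 lower ones past the stricter limits, with each motif match in capitals and the strand of the gene. They are examples, and Ndufc1, Ndufa6 and Ndufb11, also past those limits with a match, are not shown. Ndufc1, higher by 0.79, carries the YY1 element 22 bases after the start and no NRF-1 core, so the examples do not tie a motif to a direction. Ndufs5 (chr4:123718137-123718436, minus strand) and Ndufs6 (chr13:73328433-73328732, minus strand) were higher. The NRF-1 core begins 98 bases before the start in Ndufs5 and 15 bases before it in Ndufs6, where the YY1 element follows 33 bases after the start. Ndufs7 (chr10:80249199-80249498, plus strand) and Ndufs4 (chr13:114388045-114388344, minus strand) were lower. In them the YY1 element lies 24 bases after the start in Ndufs7 and 35 bases after it in Ndufs4.
Ndufs5: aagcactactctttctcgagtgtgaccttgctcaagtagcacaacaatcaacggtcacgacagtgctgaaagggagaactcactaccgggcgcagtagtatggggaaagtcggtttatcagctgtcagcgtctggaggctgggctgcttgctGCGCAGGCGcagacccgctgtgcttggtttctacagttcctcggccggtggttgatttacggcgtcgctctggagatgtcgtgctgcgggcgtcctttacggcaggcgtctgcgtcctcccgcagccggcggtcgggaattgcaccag
Ndufs6: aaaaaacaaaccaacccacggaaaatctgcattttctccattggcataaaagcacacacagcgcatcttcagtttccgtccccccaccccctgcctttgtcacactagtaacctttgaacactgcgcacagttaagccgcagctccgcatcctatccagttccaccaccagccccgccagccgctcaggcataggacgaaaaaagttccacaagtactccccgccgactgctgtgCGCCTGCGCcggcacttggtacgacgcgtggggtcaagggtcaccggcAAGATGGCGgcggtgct
Ndufs7: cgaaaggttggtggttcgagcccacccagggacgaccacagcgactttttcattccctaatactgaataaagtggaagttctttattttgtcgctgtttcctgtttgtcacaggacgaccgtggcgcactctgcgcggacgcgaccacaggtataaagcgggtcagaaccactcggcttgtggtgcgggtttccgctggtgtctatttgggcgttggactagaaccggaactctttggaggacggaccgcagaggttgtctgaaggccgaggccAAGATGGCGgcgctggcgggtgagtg
Ndufs4: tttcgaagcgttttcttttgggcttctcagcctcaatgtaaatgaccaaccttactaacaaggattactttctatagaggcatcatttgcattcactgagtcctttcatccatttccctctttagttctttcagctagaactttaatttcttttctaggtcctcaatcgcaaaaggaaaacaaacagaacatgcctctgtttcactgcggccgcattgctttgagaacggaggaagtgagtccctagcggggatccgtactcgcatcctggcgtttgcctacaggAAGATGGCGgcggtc

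Some Nduf genes are transcribed head to head with a neighbour, so that their windows overlap on opposite strands. This held for 13 of the 37 genes, and 11 of the neighbours were measured. Shared windows went with all kinds of calls. In 2 pairs both genes were called in the same direction, in 2 in opposite directions, in 3 only the Nduf gene was called, in 2 only the neighbour, and in 2 neither. Ndufa4 and Phf14 were both higher, by 1.40 and 0.70. Ndufb5 was lower while its neighbour Mrpl47, a mitochondrial ribosomal protein, was higher by 0.49. Ndufa1 was far higher while Rnf113a1 had a difference of 0.0053. Base composition and length of the genes were also set beside the differences. Over the 30 subunits with a window, Spearman's rho between the difference and the GC content of the window was 0.400, and over all probe sets with a window 0.0036. Against gene length it was -0.216 over 33 subunits and 0.148 over all probe sets with a length. These correlations run across genes of the same 10 arrays and are given as a description.

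Of the 7 Ndufaf assembly factors 4 rose and 2 fell. The median difference was 0.25, and for 6 of 7 the diets did not overlap. Over all probe sets 21.2% were higher, 21.8% were lower and 32.6% did not overlap. Ndufaf7, the methyltransferase that in human cells modifies an arginine of a core subunit, had values of 9.11, 8.98, 9.00, 9.15 and 9.12 in powdered chow-exposed embryos, against 8.20, 8.35, 8.31, 8.13 and 8.25 in pelleted chow-exposed embryos. All powdered arrays were above the pelleted ones, and the rise was 0.82 (SE 0.060, adjusted p = 3.37e-07), the only assembly factor past the stricter limits. Ndufaf5, which in human cells hydroxylates an arginine of Ndufs7, had values of 8.13, 8.01, 7.85, 8.35 and 8.16 in powdered chow-exposed embryos, against 7.56, 7.66, 7.68, 7.70 and 7.59 in pelleted chow-exposed embryos, and rose by 0.46 (SE 0.081, adjusted p = 0.000458). Its target Ndufs7 was the subunit with the largest fall, and whether these changes are linked was not tested. Ndufaf2, a late factor related to the subunit Ndufa12, had values of 8.46, 8.48, 8.38, 8.70 and 8.39 in powdered chow-exposed embryos, against 8.05, 8.35, 8.24, 8.29 and 8.21 in pelleted chow-exposed embryos, and rose by 0.25 (SE 0.075, adjusted p = 0.0154).

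Ndufaf3 and Ndufaf4 bind each other in human cells and act on the same early part of the peripheral arm, and they moved apart. Ndufaf4 had values of 8.42, 8.28, 8.49, 8.40 and 8.38 in powdered chow-exposed embryos, against 7.74, 7.83, 8.10, 8.08 and 7.86 in pelleted chow-exposed embryos, and rose by 0.47 (SE 0.076, adjusted p = 0.000219). Ndufaf3 had values of 9.58, 9.59, 9.55, 9.53 and 9.56 in powdered chow-exposed embryos, against 9.95, 10.03, 9.81, 9.67 and 9.77 in pelleted chow-exposed embryos, and fell by 0.28 (SE 0.067, adjusted p = 0.00387). Neither gene overlapped between the diets. Ndufaf1, a factor of the membrane arm that works in a complex with Ecsit, Acad9 and Tmem126b, had values of 8.54, 8.35, 8.42, 8.60 and 8.48 in powdered chow-exposed embryos, against 9.03, 9.11, 8.99, 8.64 and 9.06 in pelleted chow-exposed embryos, and fell by 0.49 (SE 0.086, adjusted p = 0.000444). Ndufaf6, needed in human cells for the mitochondrially encoded subunit Nd1, had values of 7.30, 7.27, 7.23, 7.49 and 7.36 in powdered chow-exposed embryos, against 7.22, 7.28, 7.28, 7.27 and 7.37 in pelleted chow-exposed embryos, and the difference of 0.045 was not called (SE 0.060, adjusted p = 0.577, 95% interval -0.084 to 0.18). Its groups overlapped.

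**Figure D3:**
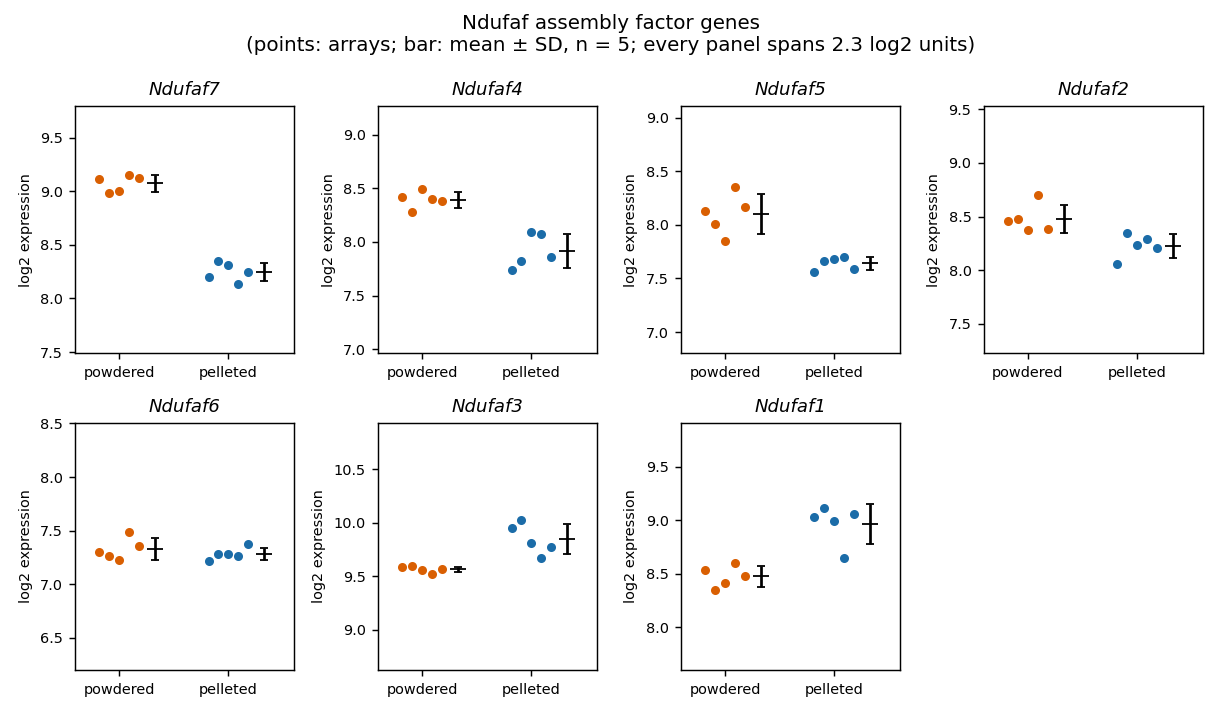
Log2 expression (vertical axis) of the 7 Ndufaf assembly factors on each array, powdered chow to the left of pelleted chow in each panel, with a point per embryo and a bar for the mean ± SD (n = 5). Ndufaf7, Ndufaf4, Ndufaf5 and Ndufaf2 are higher on every powdered array than on any pelleted array, Ndufaf1 and Ndufaf3 are lower on every powdered array, and the Ndufaf6 values overlap.

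The 3 further symbols also differed among themselves. Ndufa4, which was first assigned to complex I and is now known as a subunit of cytochrome c oxidase, had values of 11.17, 11.12, 11.01, 11.16 and 11.12 in powdered chow-exposed embryos, against 9.78, 9.86, 9.76, 9.47 and 9.71 in pelleted chow-exposed embryos. With no overlap it rose by 1.40 (SE 0.071, adjusted p = 2.29e-08), 2.64-fold. Its paralog Ndufa4l2, a target of hypoxia-inducible factor, had values of 7.66, 7.64, 7.76, 7.79 and 7.55 in powdered chow-exposed embryos, against 7.33, 7.37, 7.51, 7.48 and 7.30 in pelleted chow-exposed embryos, and rose by 0.28 (SE 0.065, adjusted p = 0.00315). Ndufa11b had values of 9.49, 9.60, 9.23, 9.25 and 9.25 in powdered chow-exposed embryos, against 8.98, 9.33, 9.43, 9.75 and 9.35 in pelleted chow-exposed embryos, with overlap and a difference of -0.00089 (SE 0.12, adjusted p = 0.996).

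The arrays of a diet did not contribute equally to these values. The powdered array 111 was the highest of its diet for 18 of the 43 genes (41.9%), against 24.6% of all probe sets, and array 115 was the highest for 0 of 43, against 16.1% of all probe sets. The pelleted array 05 was the lowest of its diet for 24 of 43 (55.8%), against 27.3% of all probe sets. Of the 30 called genes, 27 kept their call and direction wherever they were tested, when any single array was left out and under the other settings tried. Ndufb3, Ndufa13 and Ndufv3 lost their call in some. Leaving out the pelleted arrays 05 and 07 together, whose erythroid markers were high for their diet, removed those 3 calls, added Ndufa7 as lower and turned no direction.

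**Figure D4:**
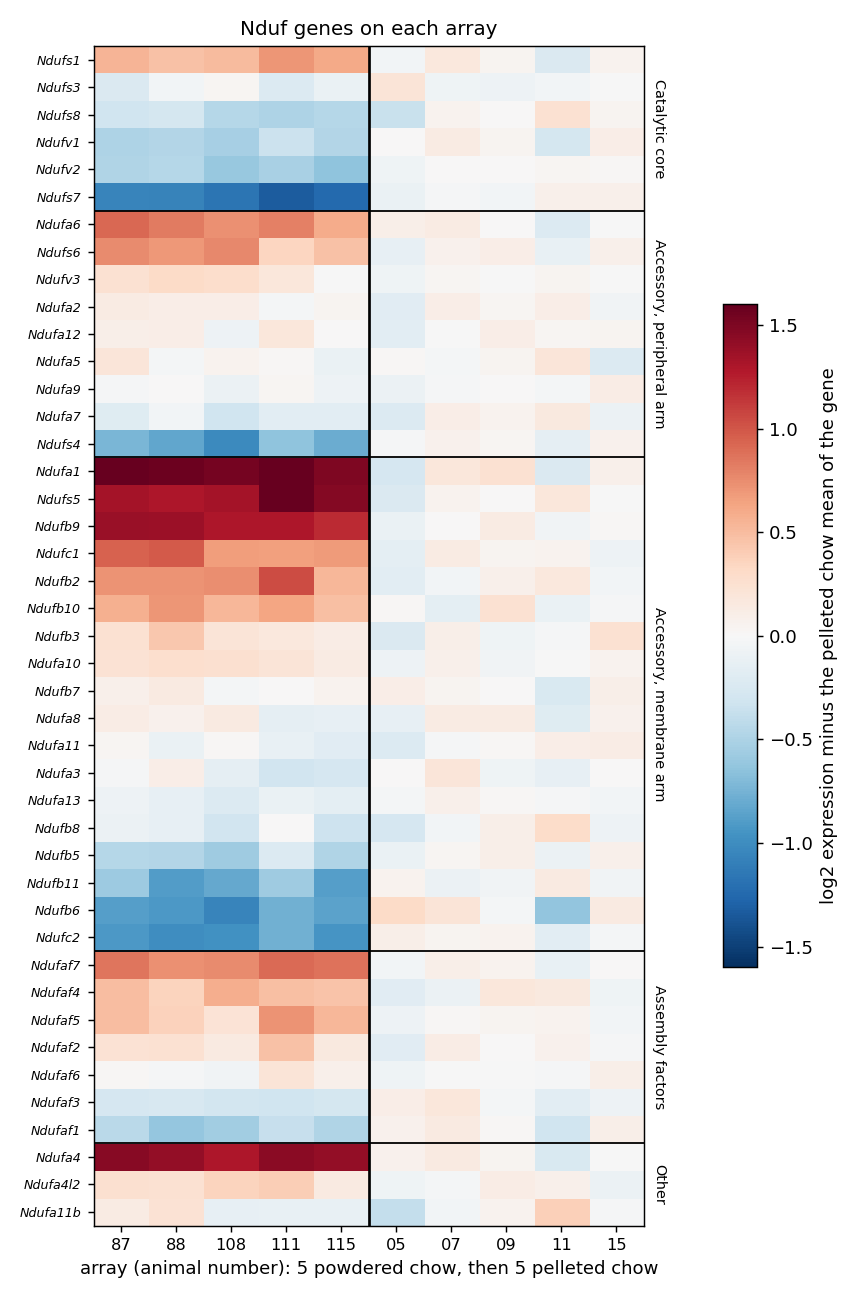
Log2 expression of the 43 Nduf genes on each of the 10 arrays, as the difference from that gene's pelleted chow mean (colour scale, log2 units), with powdered arrays at left and pelleted arrays at right and genes grouped by role. Ndufa1, Ndufs5, Ndufb9 and Ndufa4 are high on all 5 powdered arrays, and Ndufs7 and Ndufc2 are low on all 5.

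Other genes of the pathway also moved in both directions. Shares can be read against the 21.2% higher and 21.8% lower of all probe sets. Of 13 measured complex I assembly genes without an Nduf symbol 6 were higher and 1 was lower, with a median difference of 0.16. Tmem70, an assembly factor of complex I and ATP synthase, was higher by 0.59 (SE 0.050, adjusted p = 1.10e-06) and Tmem186, a factor of the membrane arm, by 0.69 (SE 0.078, adjusted p = 1.08e-05), while Foxred1 fell by 0.25 (SE 0.080, adjusted p = 0.0206). Complexes II to V had 31 measured nuclear encoded subunits, with 13 of them higher, 10 lower and a median difference of 0.053. ATP synthase subunits stood at both ends of that list, with Atp5k higher by 1.09 (SE 0.062, adjusted p = 5.63e-08) and Atp5d lower, its difference being -1.58 (SE 0.11, adjusted p = 2.15e-07). In cytochrome c oxidase Cox6a1 was higher by 0.80 (SE 0.064, adjusted p = 6.78e-07), and in complex III cytochrome c1, Cyc1, fell by 1.23 (SE 0.10, adjusted p = 9.61e-07).

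Of 13 measured regulators of mitochondrial gene expression 6 were higher and 5 lower. Twnk, the helicase of mitochondrial DNA, was higher by 0.45 (SE 0.058, adjusted p = 3.22e-05) and Gabpb1, a subunit of the factor also called NRF-2, by 0.49 (SE 0.065, adjusted p = 4.55e-05). Yy1 fell by 0.43 (SE 0.059, adjusted p = 5.86e-05) and Polrmt, the mitochondrial RNA polymerase, by 0.33 (SE 0.059, adjusted p = 0.000485). The gene for NRF-1 itself, named because its motif was searched, had a difference of 0.18 (SE 0.065, adjusted p = 0.0444), and its diets overlapped. Esrra, the gene of an estrogen-related receptor, is named for the same reason. It was higher by 0.27 (SE 0.064, adjusted p = 0.00425) without overlap, although the ERR element matched in 0 of the 37 Nduf genes with a window. Of 9 measured genes that mark mitochondrial mass 2 were higher and 2 lower (22.2% each way, near the 21.2% and 21.8% of all probe sets), namely the channel gene Vdac3 (0.70, SE 0.14, adjusted p = 0.00105) and the import pore gene Tomm40 (0.25, SE 0.051, adjusted p = 0.00145) against Vdac1 (-0.33, SE 0.053, adjusted p = 0.000243) and Cs, citrate synthase (-0.21, SE 0.059, adjusted p = 0.0111). The median of that list was -0.087.

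**Figure D5:**
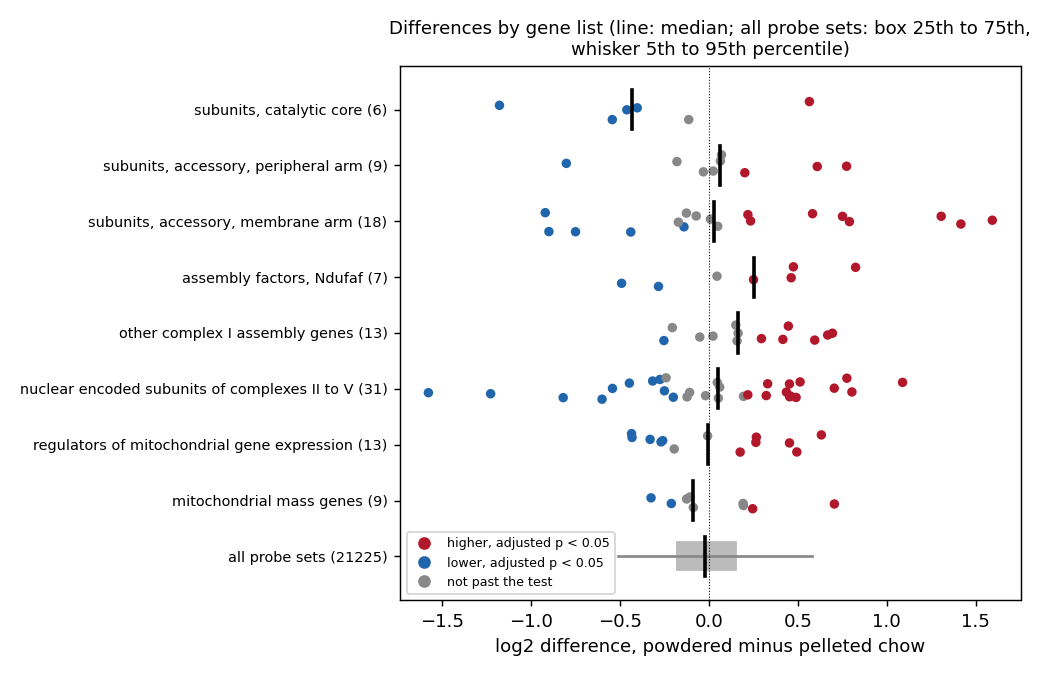
Log2 difference (powdered minus pelleted chow, horizontal axis) of the genes of each mitochondrial list, with a point per gene and the spread over all probe sets for comparison. The catalytic core has the lowest median, -0.43, and the Ndufaf assembly factors the highest, 0.25.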

How the data were processed

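The deposited values are log2 expression values, which the authors made from Affymetrix mouse gene arrays by robust multichip averaging (RMA) with version 15 of the MBNI custom CDF, giving 21225 probe sets with 1 Entrez gene each. No raw array files were used, and the values were neither renormalized nor filtered. RMA summarizes all probes of a gene, so isoforms cannot be told apart. Probe sets were named by Entrez ID through RefSeq, which named 20768 and left 457 unnamed. Of the genes that begin with Nduf, 1 is not reported here, and it is left out of every count of them.

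Titles gave the diet of each sample. Powdered minus pelleted chow was fitted with limma (lmFit and eBayes, no covariates) over all probe sets and all 10 arrays, with Benjamini-Hochberg adjustment over all of them, and the script was tested on simulated data. Genes given with all their array values were the 6 largest rises and the 6 largest falls among called subunits, the 6 core subunits described, all Ndufaf factors and the 3 other Nduf symbols. In other lists the 2 lowest p in each direction are named. Nrf1, Esrra, Phf14, Mrpl47 and Rnf113a1 were named after their values were seen. The Nduf genes and the lists were chosen with earlier results of these data known, so lists are described by counts and medians. Alternatives were array quality weights, a robust prior with an intensity trend, the methods' t-test, median centring, quantile normalization, brightness filters, other fold limits and leaving out arrays. Tools were limma 3.58.1 in R 4.3.3, and pandas 2.3.3, numpy 2.4.6 and matplotlib 3.10.9 in Python 3.11.15. Protein lengths were not used here. The length of the gene, introns included, was described instead and is not a measure of protein length.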

Additional observations from a re-analysis of the deposited data

Results flagged for a closer look

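In 4 of the 86 sets of 5 arrays formed by 43 genes and 2 diets, 1 array stood far from the other 4. Chance alone flags about 1 in 20 such sets. All 4 were pelleted chow arrays, 2 times array 11 and 2 times array 05. Array 11 was low for Ndufaf1 at 8.64, where the next value was 8.99, and for Ndufb7 at 8.81, where the next was 9.06. Array 05 was high for Ndufs3 at 11.30, where the next value was 11.08, and low for Ndufv2 at 11.24, where the next was 11.32. Leaving out the array in question kept the calls of Ndufaf1 and Ndufv2.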

How the results depend on the processing

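Under 18 alternatives 27 of the 30 called Nduf genes kept their call wherever tested, and no call turned direction. Leaving out 1 array at a time gave 10 to 12 higher and 9 to 11 lower subunits, 4 higher and 2 lower assembly factors at every turn, and 7 to 9 higher and 5 lower genes past the limits of the methods, which were 8 and 5 over subunits and assembly factors with all arrays. Dropping the fold limit brought the higher genes to 12 and the lower genes to 10, and with a fold change above 2 there were 3 higher and 1 lower. Ndufa11b, which was not called, changed sign to 0.033 with array quality weights, and over the arrays left out ran between -0.098 without pelleted chow 05 and 0.095 without pelleted chow 11, with 0.032, 0.028 and 0.027 without powdered chow 108, 111 and 115 and 0.014 without pelleted chow 09. Ndufa8 (-0.053 to 0.047), Ndufb7 (-0.012 to 0.10) and Ndufa5 (-0.031 to 0.073), also not called, crossed 0 as well. The cause was not tested. A filter at the median brightness left Ndufb3, Ndufaf6 and Ndufa4l2 untested. No paired analysis was possible because the diets share no animal numbers. Without detection calls, whether a gene lay above background could not be asked. The smallest p of an exact two-sided permutation test of 5 against 5 arrays is 0.00794, so calls rest on the limma fit. P-values measure the spread between embryos of different litters. The labels hold no preparation batch, so a preparation difference between the diets could not be told apart from diet and was not tested.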
